A study of Homo sapiens with 30 samples.

Results

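The comparison described here asked what a day of Activin A did to human embryonic stem cells that had received Wnt3a the day before. It set the 2 WNT_ACT libraries against the 2 WNT_E7 libraries, 4 of the 16 RNA libraries and of the 30 samples of the series, chosen by their labels. All came from RUES2, an established human embryonic stem cell line, grown in TeSR E7 medium with ROCK inhibitor, which keeps dissociated stem cells alive. WNT_ACT and WNT_E7 cells both received Wnt3a at 100 ng/mL on day 1. On day 2 WNT_ACT cells received Activin A at 10 ng/mL and WNT_E7 cells received none, and both were collected at 48 h. Other groups are quoted for context. E7 (untreated) and WNT (Wnt3a) were collected at 24 h, and E7_ACT (no Wnt3a on day 1, Activin A on day 2) at 48 h. WNT_CPI_ACT (48 h) had Wnt3a together with the BET bromodomain inhibitor CPI-203 at 1 µM on day 1, then Activin A. No untreated group was collected at 48 h, and all groups were the same cell line.

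Activin A is a secreted ligand of the TGF-beta family. It binds the same receptors as Nodal, type II (ACVR2A, ACVR2B) and type I (ACVR1B), which phosphorylate SMAD2 and SMAD3. These join SMAD4, enter the nucleus and act with partners such as FOXH1 and EOMES. In the embryo, Wnt and Nodal signals together form the primitive streak, whose anterior end gives rise to definitive endoderm, and the same signals are used in culture to turn pluripotent cells into mesendoderm.

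The 4 libraries held 37413711 to 40088591 counts, and 15943 to 16141 genes had at least 10 counts in each. Gene levels are in CPM, that is counts divided by the TMM-adjusted depth of the library, with replicate 1 first and replicate 2 after it. Differences are log2 fold changes of WNT_ACT over WNT_E7 with their standard error (SE), from edgeR's quasi-likelihood test with the replicate number as a block, over 2 libraries per group. A gene was called at a Benjamini-Hochberg adjusted p under 0.05. The spread was estimated over all 15 fitted RNA libraries, the CPI-203 groups included. The labels do not say that replicates were separate cultures, so every p-value here speaks of how far these libraries spread, which may be technical. In bulk RNA, more cells of a type and more RNA per cell cannot be told apart. The stem cell genes POU5F1 and LIN28A were high in all 4 libraries, with POU5F1 at 614 and 707 CPM in WNT_E7 and 688 and 824 in WNT_ACT. The neuroectoderm gene PAX6 was below 1 CPM in each.

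Of 17793 genes tested, 1130 were called, which is 6.35%. Of these, 712 were higher in WNT_ACT (4.00%) and 418 were lower (2.35%). The median log2 fold change of all tested genes was -0.02. The rises were larger than the falls: 192 raised genes and 42 lowered genes differed by 2 or more on the log2 scale, and 76 and 0 by 4 or more. The raised genes were 1.15 higher at the median, and the lowered genes stood at a median of -0.83. All 712 raised and 418 lowered genes moved the same way in both replicates, as 60.2% of all tested genes did. The size differed, with a median log2 ratio for raised genes of 1.30 in replicate 1 and 0.85 in replicate 2. For lowered genes the medians were -1.07 and -0.67. The ratio was larger in replicate 1 for 568 raised and 341 lowered genes, or 79.8% and 81.6%, against 55.7% of all tested genes.

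The calls depended on the replicate block and on the replicate 1 libraries. Without the block 22 genes were called, 19 higher and 3 lower, and all 22 were also called with it. Among the 4 libraries, leaving out WNT_E7 replicate 1 left 124 calls and leaving out WNT_ACT replicate 1 left 159. Without WNT_E7 replicate 2 and WNT_ACT replicate 2 there were 878 and 1061. The 22 genes were ADAM19, ADAMTS1, AMIGO2, AP3B2, APLNR, BACE2, CASP10, COL1A2, COLGALT2, FAM110B, FLRT2, HEBP2, KDM6B, MEIS3, NTS, PDE1B, RHBDF1, RNF19A and TACR1, which rose, and JADE1, LRAT and LRRN1, which fell.

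**Figure D1:**
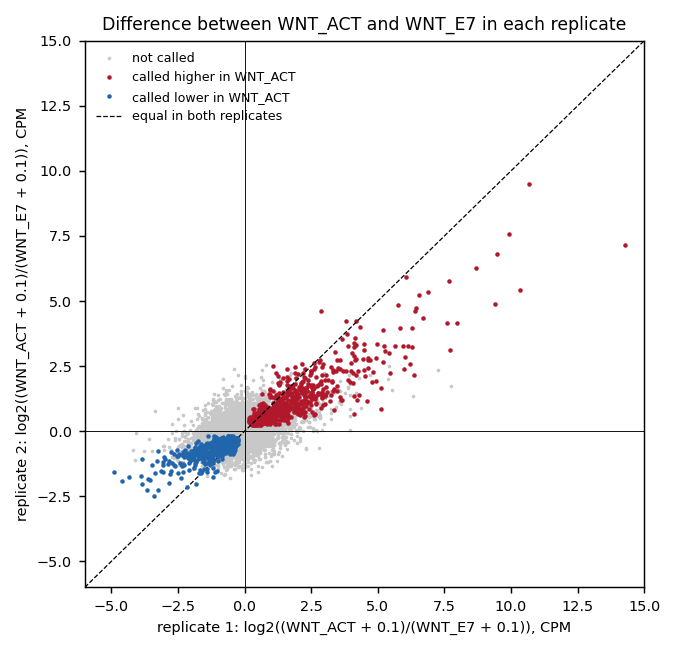
Log2 ratio of WNT_ACT over WNT_E7 in replicate 1 (x axis) and replicate 2 (y axis), from CPM with 0.1 added, for the 17793 genes tested. Red points are the 712 genes called higher and blue points the 418 called lower; most of both lie on the side of the dashed line of equal ratios where replicate 1 had the larger one.

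Among the genes that marked this comparison, 3 rose and 1 fell. CER1 encodes Cerberus, a secreted inhibitor of Nodal, BMP and Wnt ligands made by anterior endoderm. It stood at 0 and 0.773 CPM in WNT_E7 and at 1968 and 124 CPM in WNT_ACT. Both WNT_ACT libraries lay far above both WNT_E7 libraries, and replicate 1 lay above replicate 2. The fitted log2 fold change was 10.92 (SE 1.97, edgeR adjusted p = 0.0133). This call was lost without the block (adjusted p = 0.199), with DESeq2 (0.101), with the 48 h groups fitted alone (0.0606), without WNT_ACT replicate 1 (0.0958) and without WNT_E7 replicate 1 (0.139).

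APLNR, the apelin receptor of migrating mesendoderm, was at 2.77 and 1.3 CPM in WNT_E7 and at 51.4 and 26.2 in WNT_ACT. The 2 groups did not overlap, as in 30.2% of all genes tested and 92.1% of those called, and the rise was 4.26 on the log2 scale (SE 0.44, edgeR adjusted p = 0.00101). NTS, the neurotensin peptide, was at 10.4 and 9.93 CPM in WNT_E7 and at 98.5 and 56 in WNT_ACT. It rose by 2.93 (SE 0.30, edgeR adjusted p = 0.00101), again without overlap. LRAT stores retinol as its ester. It was at 93.3 and 64.2 CPM in WNT_E7 and at 17.6 and 18.2 in WNT_ACT, with a log2 fold change of -2.11 (SE 0.18, edgeR adjusted p = 0.000823). APLNR, NTS and LRAT were called with each of the 4 libraries left out in turn and also without the block.

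**Figure D2:**
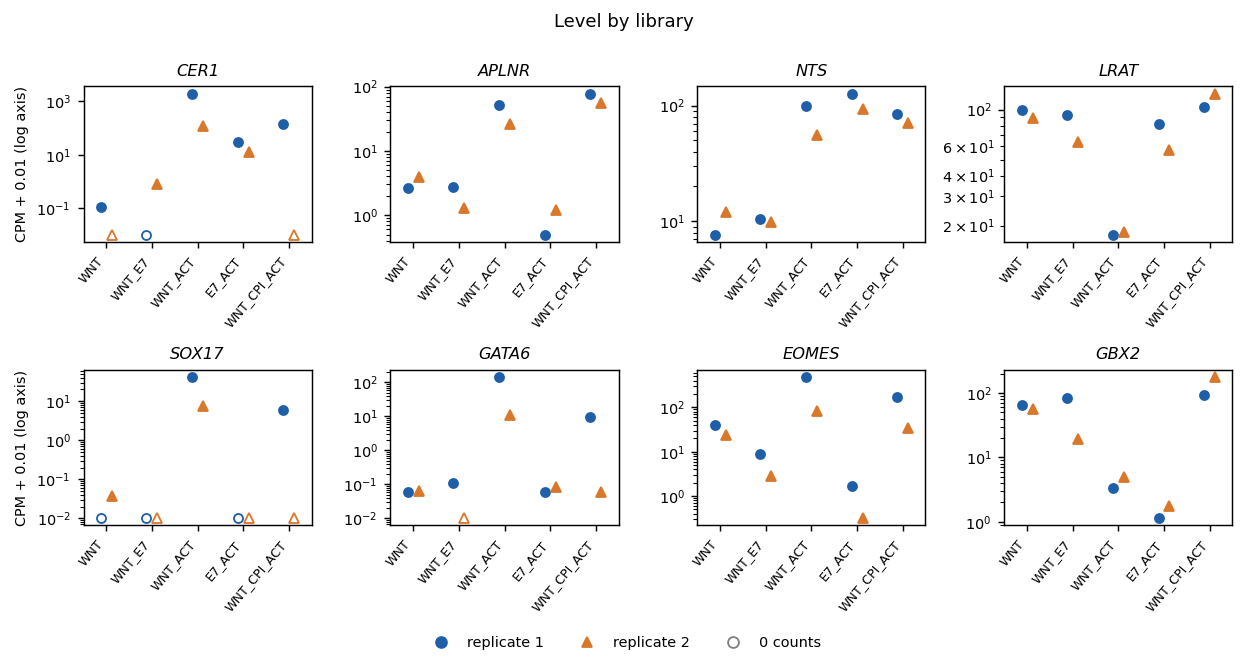
Level of 8 genes in each library (y axis, CPM + 0.01, log axis) by group (x axis), with circles for replicate 1, triangles for replicate 2 and open symbols for 0 counts. CER1, APLNR, NTS, SOX17, GATA6 and EOMES are higher in both WNT_ACT libraries than in both WNT_E7 libraries, and LRAT and GBX2 are lower.

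Of the genes of definitive endoderm and anterior primitive streak, 11 of the 21 tested members rose and 0 fell. The share called was 52.4%, against 6.35% of all genes, and the list's median log2 fold change was 2.39. SOX17, the transcription factor that sets up definitive endoderm, had 0 counts in both WNT_E7 libraries and stood at 41.4 and 7.64 CPM in WNT_ACT. It was at least 660-fold higher, taking 3 counts over the WNT_E7 group as the limit (edgeR adjusted p = 0.00607). GATA6, an endoderm factor, went from 0.102 and 0 CPM to 143 and 11.1, a log2 fold change of 10.32 (SE 1.33, edgeR adjusted p = 0.00303). Both genes were at or near 0 counts in medium and were detected in both replicates with Activin A.

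FOXA2, a pioneer factor of endoderm and of the node, was at 1.14 and 0.399 CPM in WNT_E7 and at 83.6 and 30.3 in WNT_ACT. It rose 73.1-fold in replicate 1 and 76-fold in replicate 2 (log2 fold change 6.24, SE 1.04, edgeR adjusted p = 0.00793). GSC, the homeobox gene of the organizer, was at 0 and 0.175 CPM in WNT_E7 and at 67.5 and 8.1 in WNT_ACT (log2 fold change 8.39, SE 1.16, edgeR adjusted p = 0.00378). LHX1, which acts with these factors in the anterior streak, was at 0.229 and 0.274 CPM against 66.7 and 20.3 (log2 fold change 7.28, SE 1.22, edgeR adjusted p = 0.00799). In each of the 3 genes the lower WNT_ACT library was still far above the higher WNT_E7 library.

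The other raised members were HHEX, GATA4, PRDM1, FZD8, CHRD and SHH. HHEX, a factor of anterior endoderm, was at 0.254 and 0.349 CPM in WNT_E7 and at 13.2 and 4.28 in WNT_ACT. CHRD, the BMP antagonist chordin, changed less, from 1.78 and 0.524 CPM to 5.61 and 2.54 (log2 fold change 1.90, SE 0.28, edgeR adjusted p = 0.00467). SHH had 3 counts in WNT_E7 and 74 in WNT_ACT, a ratio of 25.6 (95% exact interval 8.44 to 127, counting error only). Members that were not called included CXCR4, a surface receptor used to sort endoderm, at 0.381 and 1.37 CPM in WNT_E7 and 2.05 and 1.82 in WNT_ACT (edgeR adjusted p = 0.114). OTX2, of anterior identity, was at 13.8 and 18.3 CPM against 113 and 44.3 (adjusted p = 0.19), and KIT at 33 and 40.8 against 45.9 and 34.7 (0.793). Without WNT_ACT replicate 1 the calls of SOX17 and GATA6 were kept, and without WNT_E7 replicate 1 that of CHRD alone. Without WNT_ACT replicate 2 and WNT_E7 replicate 2, 11 and 10 of the 11 were kept.

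Of the genes of primitive streak and early mesoderm, 10 of the 23 tested rose and 0 fell. The share called was 43.5%, against 6.35% of all genes, and the list median was 1.06. EOMES, the T-box factor of mesendoderm, was already induced by Wnt3a, at 39.7 and 23.7 CPM at 24 h against 0.275 and 0.0944 in E7. It stood at 8.74 and 2.87 CPM after a day of medium and at 481 and 84.9 after a day of Activin A. The 48 h groups did not overlap, as in 30.2% of all genes tested. The log2 fold change was 5.43 (SE 0.53, edgeR adjusted p = 0.000898), called with each of the 4 libraries left out. TBXT (Brachyury), the T-box gene that marks the streak, was at 0.838 and 1.17 CPM in WNT_E7 and at 79.2 and 30.9 in WNT_ACT (log2 fold change 5.58, SE 0.90, edgeR adjusted p = 0.00709).

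MIXL1, a homeobox gene of the streak and a known Nodal target, was at 0.508 and 2.39 CPM in WNT_E7 and at 792 and 106 in WNT_ACT. Its ratio was 1560-fold in replicate 1 and 44.4-fold in replicate 2 (log2 fold change 7.71, SE 1.32, edgeR adjusted p = 0.00879). The calls of MIXL1 and TBXT were lost without WNT_ACT replicate 1 (adjusted p = 0.0586 and 0.0501) and without WNT_E7 replicate 1 (0.0993 and 0.0972). The ligand genes FGF17, FGF8 and WNT3 and the factors FOXC1, SNAI1 and CDX1 were among the other raised members, with PDGFRA, a receptor of paraxial mesoderm and endoderm precursors. PDGFRA was at 1.12 and 1.72 CPM against 37.2 and 6.76. CDX1 rose over WNT_E7 from a low level, 0 and 0.0998 CPM to 0.384 and 0.535, which was below its level in WNT, 1.23 and 0.937. The list members MESP1 and HAND1 had few counts in both groups: MESP1 had 9 counts in WNT_E7 and 4 in WNT_ACT, and HAND1 had 0 and 2. Of the 10 members, EOMES and FGF17 kept their calls without either replicate 1 library, and 8 and 9 did so without WNT_ACT replicate 2 and WNT_E7 replicate 2.

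**Figure D3:**
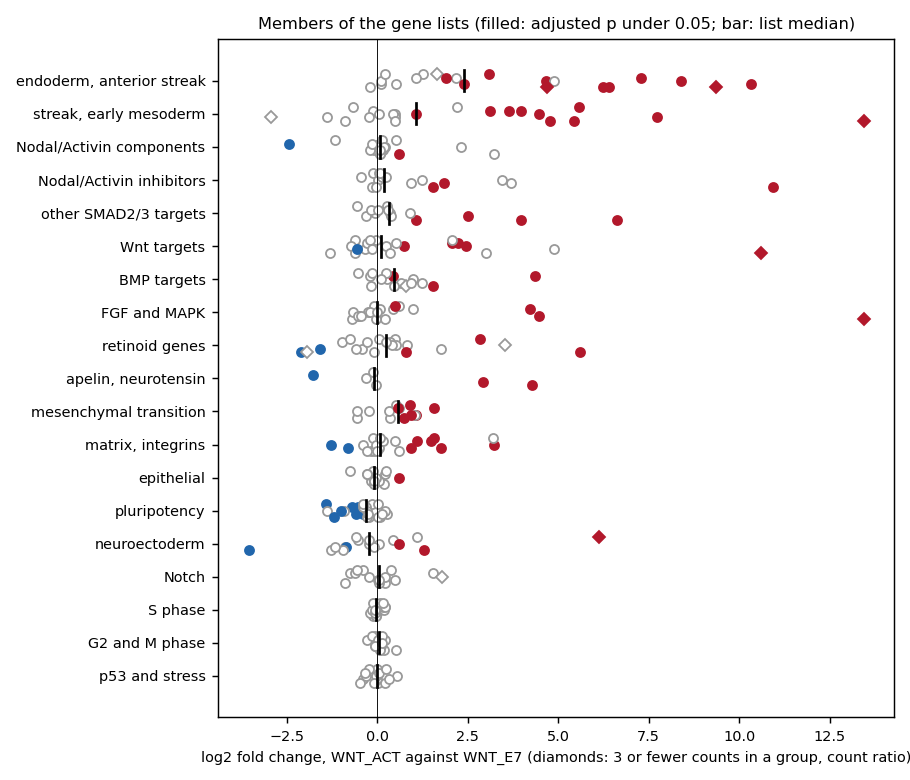
Log2 fold change of WNT_ACT over WNT_E7 (x axis) for the tested members of 19 gene lists (y axis), with filled points for called genes, open grey points for genes that were not called and a black bar at each list's median. Genes with 3 or fewer counts in 1 group are drawn as diamonds at their count ratio, with 0 set to 3 counts, and genes with 3 or fewer in both groups are left out. FGF17, in the streak and the FGF lists, lies furthest to the right, and the filled points of the pluripotency list all lie to the left of 0.

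Of 17 tested ligands, co-receptors, receptors and SMADs of the pathway, 1 rose and 1 fell, or 11.8% against 6.35% of all genes. The receptor genes ACVR1B, ACVR2A and ACVR2B had log2 fold changes of -0.10, 0.13 and 0.07 (edgeR adjusted p = 0.736, 0.665 and 0.693), and SMAD2, SMAD3 and SMAD4 of -0.20, 0.18 and -0.14 (0.202, 0.458 and 0.31). FURIN, the protease that cleaves Nodal and TGF-beta precursors, rose from 55.5 and 84.2 CPM to 82 and 126 (log2 fold change 0.59, SE 0.09, edgeR adjusted p = 0.00591). INHBA, which encodes the subunit of Activin A itself, fell from 1.09 and 0.674 CPM to 0.0512 and 0.267 (log2 fold change -2.44, SE 0.52, edgeR adjusted p = 0.0212). Without WNT_E7 replicate 1 neither was called, and without WNT_ACT replicate 1 only FURIN was.

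The Nodal ligand and its LEFTY inhibitors, the standard feedback genes of this pathway, were higher in WNT_ACT in both replicates but were not called. NODAL was at 7.14 and 38.5 CPM in WNT_E7 and at 302 and 155 in WNT_ACT. The ratio was 42.4-fold in replicate 1 and 4.02-fold in replicate 2 (log2 fold change 3.22, SE 0.93, edgeR adjusted p = 0.068). LEFTY1 was at 0.813 and 10.9 CPM in WNT_E7 and at 197 and 37.1 in WNT_ACT (edgeR adjusted p = 0.0715). LEFTY2 was at 0.305 and 7.58 CPM against 61.4 and 38.9 (adjusted p = 0.141). In all 3 genes the WNT_E7 library of replicate 2 stood well above that of replicate 1, while WNT_ACT was higher in replicate 1. LEFTY1 and LEFTY2 are close copies, so how reads were split between them is uncertain. GDF3, a Nodal-related ligand, was at 15.7 and 41.8 CPM against 132 and 137 (adjusted p = 0.0545). Without WNT_E7 replicate 2 all 3 were called (adjusted p = 0.0285 for NODAL, 0.00506 for LEFTY1 and 0.0382 for LEFTY2).

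Of 16 inhibitors of the pathway, 3 rose (18.8%, against 6.35% of all genes called) and 0 fell. They were CER1, SMAD6 and PMEPA1, and the list median was 0.18. CER1 was a given marker of the comparison, and SMAD6 is also in the BMP list. PMEPA1, which retains SMAD2 and SMAD3 at the membrane, was at 10 and 29.8 CPM in WNT_E7 and at 77.2 and 59.2 in WNT_ACT (log2 fold change 1.85, SE 0.39, edgeR adjusted p = 0.0197). SMAD6, an inhibitory SMAD, was at 1.35 and 3.07 CPM against 8.32 and 5.19 (log2 fold change 1.54, SE 0.40, edgeR adjusted p = 0.0442). SMAD7, the other inhibitory SMAD, was at 10.6 and 27.5 CPM against 41.7 and 27.2, equal in replicate 2 (adjusted p = 0.174). FST, the secreted Activin antagonist follistatin, was at 162 and 60.6 CPM against 85.2 and 70.8 (adjusted p = 0.43). None of the 3 calls was kept without the block, with the 48 h groups alone, without WNT_ACT replicate 1 or without WNT_E7 replicate 1. Without WNT_E7 replicate 2 the median log2 fold change of the 16 inhibitors was 0.52, above the 0.18 with all libraries. PMEPA1 was among the higher members there, while FST was lower.

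Of 14 other SMAD2/3 targets tested, 4 rose (28.6%, against 6.35% of all genes called), among them TGFB1, WNT3 and SNAI1. TGFB1, a ligand of the same family, was at 5.31 and 10.9 CPM against 44.2 and 42.8, with no overlap between groups (log2 fold change 2.50, SE 0.46, edgeR adjusted p = 0.0117). WNT3, the ligand that starts the streak in the embryo, was at 1.14 and 7.66 CPM against 81.3 and 56.3 (log2 fold change 3.97, SE 0.75, edgeR adjusted p = 0.0135). All 4 lost their calls without WNT_ACT replicate 1 or without WNT_E7 replicate 1, and kept them without either replicate 2 library.

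**Figure D4:**
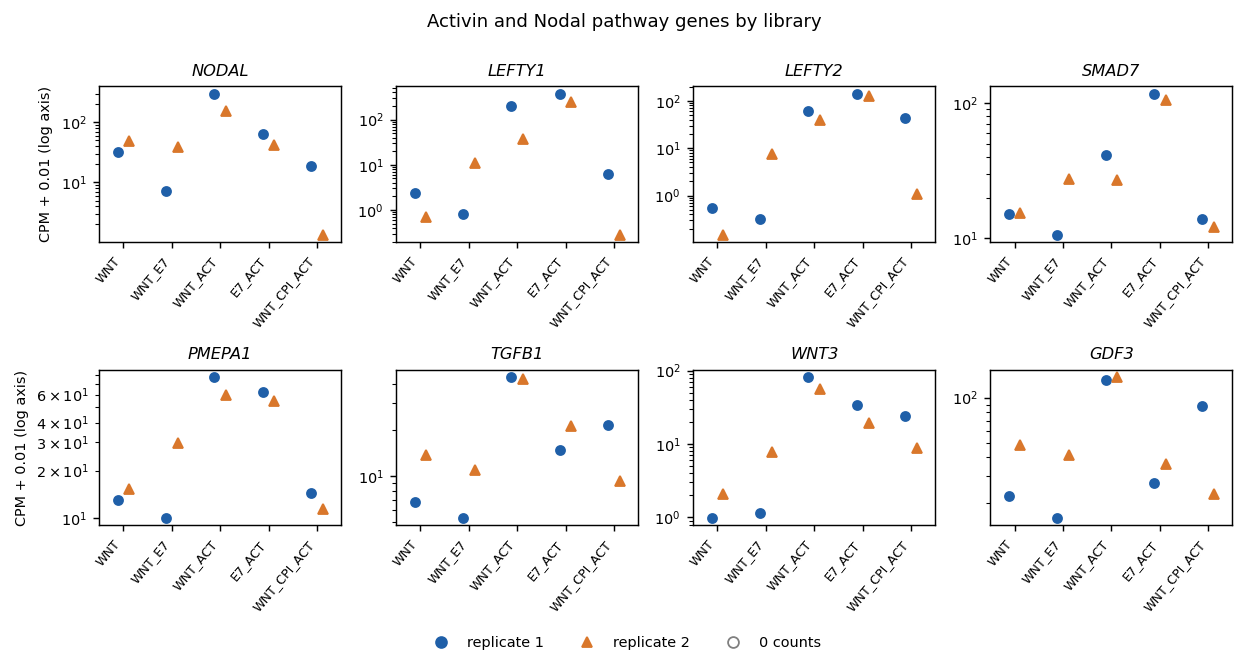
Level of 8 genes of the Activin and Nodal pathway in each library (y axis, CPM + 0.01, log axis) by group (x axis), with circles for replicate 1, triangles for replicate 2 and open symbols for 0 counts. For all 8 genes the WNT_E7 triangle lies above the WNT_E7 circle.

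E7_ACT, which had Activin A without Wnt3a, shares its Activin A day with WNT_ACT. NTS stood at 127 and 92.9 CPM in E7_ACT and PMEPA1 at 62.2 and 54.4. For both genes WNT_ACT over E7_ACT was not called, at log2 fold changes of -0.51 and 0.24 (edgeR adjusted p = 0.281 and 0.75). LEFTY1 and LEFTY2 were at 378 and 243 and at 143 and 128 CPM in E7_ACT, above both WNT_ACT libraries. SMAD7 was at 118 and 105 CPM there, with WNT_ACT lower by a log2 fold change of -1.68 (SE 0.37, edgeR adjusted p = 0.0139).

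Several endoderm and streak genes were low in E7_ACT. SOX17 had 0 counts in both E7_ACT libraries, so WNT_ACT was at least 669-fold higher (edgeR adjusted p = 0.00258). EOMES was at 1.65 and 0.304 CPM in E7_ACT, with a log2 fold change of WNT_ACT over E7_ACT of 8.01 (SE 0.63, edgeR adjusted p = 5.61e-05). For TBXT this value was 7.43 (SE 1.04, adjusted p = 0.00143), for FOXA2 6.92 (SE 1.09, 0.00269) and for APLNR 5.49 (SE 0.49, 0.000105). CER1 was at 30.3 and 13.1 CPM in E7_ACT (log2 fold change 4.39, SE 1.30, adjusted p = 0.0591). In all, 11.4% of tested genes were called between WNT_ACT and E7_ACT, 6.49% higher and 4.89% lower in WNT_ACT.

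SP5, GAD1 and LINC01124 were lower after a day of medium than in WNT at 24 h. After a day of Activin A they were not called different from the 24 h level. WNT against E7 was not tested. SP5, a direct Wnt target, was at 0.075 and 0.0708 CPM in E7 and at 80.4 and 89.5 in WNT at 24 h. It was at 25.1 and 10.1 CPM in WNT_E7 and at 92.8 and 48.2 in WNT_ACT. The difference between the 48 h groups was 2.05 (SE 0.29, edgeR adjusted p = 0.00415). WNT_E7 was below WNT by a log2 fold change of -2.44 (adjusted p = 0.0394), while WNT_ACT stood at -0.39 from WNT (adjusted p = 0.426). The SP5 call between 48 h groups had an adjusted p of 0.0501 without WNT_ACT replicate 1.

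GAD1, which makes the transmitter GABA, was at 65.3 and 41.2 CPM in WNT, at 14.9 and 6.46 in WNT_E7 and at 67.8 and 31.2 in WNT_ACT. The ratio of the 48 h groups was close to equal in both replicates, 4.54-fold and 4.83-fold (log2 fold change 2.23, SE 0.14, edgeR adjusted p = 0.000187). LINC01124, which neighbours SP5 in the RefSeq annotation, was at 2.09 and 2.1 CPM in WNT, 0.457 and 0.274 in WNT_E7 and 2.56 and 1.87 in WNT_ACT (log2 fold change 2.61, SE 0.30, edgeR adjusted p = 0.00333). GAD1 and LINC01124 were called with each of the 4 libraries left out, but not without the block (adjusted p = 0.201 and 0.0699).

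Only 7 genes, 0.0393% of those tested, were called between WNT_E7 and WNT, and all were lower after the day of medium, among them CDX2, CHGA, GAD1, LINC01124, SP5 and TTC29. CDX2, a posterior gene, was at 3.15 and 1.24 CPM in WNT, at 0.152 and 0.0249 in WNT_E7 and at 0.0256 and 0.0802 in WNT_ACT, low in both 48 h groups. CHGA was at 24.2 and 40.2 CPM in WNT, 13.9 and 15.1 in WNT_E7 and 13.4 and 16.8 in WNT_ACT, likewise without a call between the 48 h groups (adjusted p = 0.881). Without WNT replicate 1, WNT replicate 2, WNT_E7 replicate 1 and WNT_E7 replicate 2, the number of genes called between WNT_E7 and WNT was 2, 1, 6 and 1. Between WNT_ACT and WNT 9.26% of genes were called, 5.78% higher and 3.48% lower in WNT_ACT.

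Across the Wnt targets and feedback genes, 5 of 22 tested rose between WNT_E7 and WNT_ACT and 1 fell, with a median of 0.10. The share called was 27.3%, against 6.35% of all genes. The raised members were SP5, NKD1, APCDD1, NOTUM and DKK4. APCDD1, a Wnt inhibitor at the membrane, was at 13.9 and 6.24 CPM in WNT_E7 and at 78.7 and 31.5 in WNT_ACT (log2 fold change 2.45, SE 0.31, edgeR adjusted p = 0.00297). DKK4, a secreted Wnt antagonist, had 0 counts in WNT_E7 and stood at 96 and 19.1 CPM in WNT_ACT, at least 1546-fold higher. It was also at 0 counts in E7_ACT. The general targets AXIN2, LEF1 and CCND1 were not called. AXIN2 was at 68.7 and 56.5 CPM in WNT_E7 and at 87 and 58.7 in WNT_ACT (adjusted p = 0.523). LEF1 was at 13 and 4.79 CPM against 3.92 and 2.83 (adjusted p = 0.0576). LEF1 and SP5 thus had opposite signs. SFRP2 was the member that fell. Without WNT_ACT replicate 1 the calls of APCDD1 and DKK4 were kept, and without WNT_E7 replicate 1 those of SP5 and APCDD1.

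**Figure D5:**
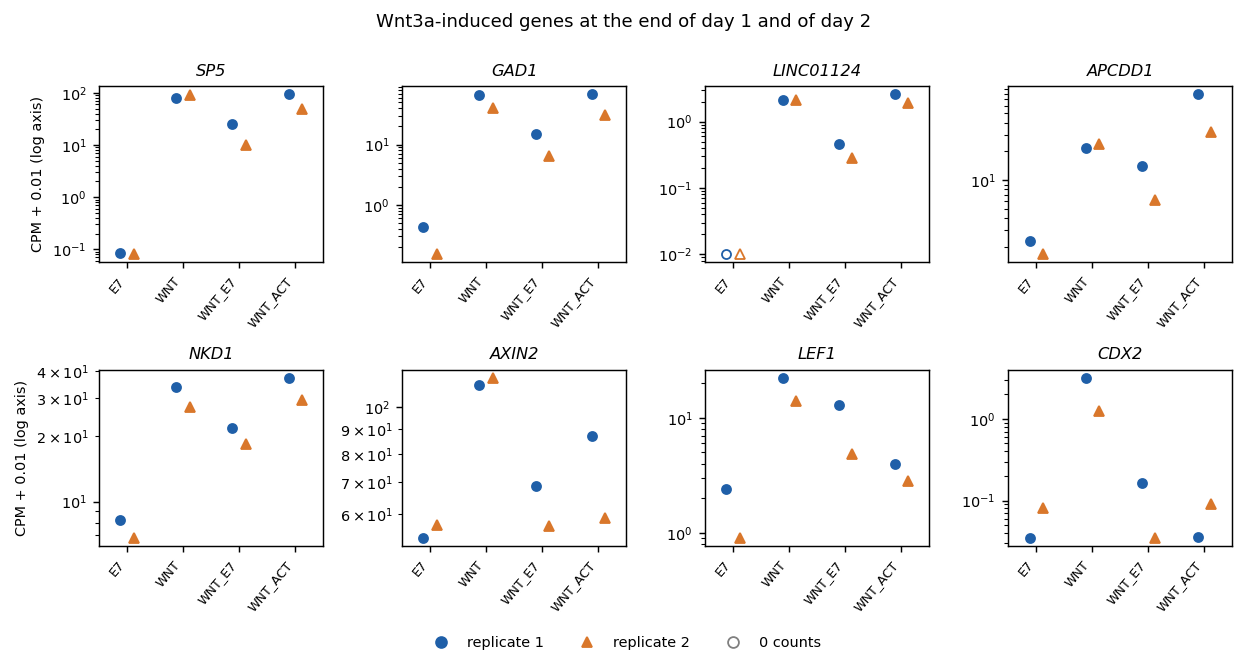
Level of 8 genes (y axis, CPM + 0.01, log axis) in E7 and WNT at 24 h and in WNT_E7 and WNT_ACT at 48 h (x axis), with circles for replicate 1, triangles for replicate 2 and open symbols for 0 counts. WNT against E7 was not tested. SP5, GAD1 and LINC01124 are lower in WNT_E7 than in WNT and WNT_ACT. CDX2 is low in both 48 h groups. LEF1 is lower in WNT_ACT than in WNT_E7 but was not called.

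Promoters of the called genes named in this section were searched for short motifs, in windows from 250 bases before to 50 after the RefSeq start (GRCh38.p14), on both strands. Of 92 genes, 64 had a window. The FOXH1 core (AATCCACA) was in 0.817% of the 35116 windows in the table, and in 98 of 13696 tested genes with a window (0.716%). It was in 6 of 544 raised genes (1.1%) and in 3 of 335 lowered genes (0.896%). The 8-base SMAD palindrome (GTCTAGAC) was in 0.248% of tested, 0.551% of raised and 0.299% of lowered genes. The TCF/LEF core (CTTTGAT) was in 2.2%, 4.04% and 3.58%. A T-box core (TCACACCT) was in 1.08%, 1.29% and 1.49%, a GATA core (AGATAA) in 8.56%, 10.5% and 14.3%, and a GC-rich SMAD motif (GGCGCC) in 33.8%, 40.3% and 34.6%. None of these shares was tested. The 250 bases before the start are shown for MIXL1, SMAD6 and SP5, all raised, because each holds a FOXH1 core or a SMAD palindrome. PMEPA1 also holds a FOXH1 core but is not shown, since its window lies inside the gene. They come from chr1:226223414-226223663, chr15:66701986-66702235 and chr2:170715087-170715336, all on the + strand. Capitals mark the FOXH1 core, the SMAD palindrome and the TCF/LEF core, in either orientation, and the marked matches do not overlap. A match describes the letters only.
MIXL1: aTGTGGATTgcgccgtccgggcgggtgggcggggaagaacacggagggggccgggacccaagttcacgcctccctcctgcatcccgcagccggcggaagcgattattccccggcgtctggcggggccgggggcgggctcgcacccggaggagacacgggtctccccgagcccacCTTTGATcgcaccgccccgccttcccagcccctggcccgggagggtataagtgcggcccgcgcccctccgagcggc
SMAD6: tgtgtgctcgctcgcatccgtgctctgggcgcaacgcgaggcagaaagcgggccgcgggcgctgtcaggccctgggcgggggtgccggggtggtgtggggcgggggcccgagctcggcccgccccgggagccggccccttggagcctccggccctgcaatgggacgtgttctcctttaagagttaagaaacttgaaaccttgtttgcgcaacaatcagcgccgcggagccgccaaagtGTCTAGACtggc
SP5: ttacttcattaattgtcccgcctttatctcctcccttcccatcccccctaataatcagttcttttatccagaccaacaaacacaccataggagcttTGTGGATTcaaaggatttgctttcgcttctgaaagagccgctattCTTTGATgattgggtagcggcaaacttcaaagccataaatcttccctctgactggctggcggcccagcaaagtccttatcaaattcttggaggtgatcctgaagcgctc
MIXL1 and SP5 each hold a FOXH1 core and a TCF/LEF core in this window, and SMAD6 a SMAD palindrome that begins 12 bases before the start.

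Of the pluripotency genes, 7 of 23 fell (30.4%, against 6.35% of all genes called) and 0 rose, with a median of -0.31. SOX2, a core factor also kept by neural cells, was at 326 and 427 CPM in WNT_E7 and at 155 and 321 in WNT_ACT (log2 fold change -0.69, SE 0.18, edgeR adjusted p = 0.0415). PRDM14, a repressor of differentiation genes, was at 112 and 93.7 CPM against 33.2 and 45 (log2 fold change -1.41, SE 0.23, edgeR adjusted p = 0.00709). USP44, a deubiquitinase of stem cells, was at 379 and 294 CPM against 139 and 151 (log2 fold change -1.18, SE 0.11, edgeR adjusted p = 0.000898). The other lowered members were DPPA2, DPPA4, DNMT3B and TRIML2.

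For SOX2 the groups came close, at 321 CPM in the higher WNT_ACT library and 326 in the lower WNT_E7 library. POU5F1, NANOG and LIN28A were not called, at log2 fold changes of 0.20, 0.27 and -0.16 (edgeR adjusted p = 0.186, 0.371 and 0.287). Without WNT_ACT replicate 1 or without WNT_E7 replicate 1 only USP44 was still called. Without WNT_ACT replicate 2 and WNT_E7 replicate 2, 5 and 3 of the 7 were.

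Among the neuroectoderm genes 3 of 17 tested rose and 2 fell (29.4% called, against 6.35% of all genes), with a median of -0.24. GBX2, a homeobox gene of the hindbrain border that Wnt3a had raised at 24 h (65.4 and 55.7 CPM against 5.42 and 4.76 in E7), had the lowest log2 fold change of the called genes above the level set for naming. GBX2 was at 83.1 and 19.4 CPM in WNT_E7 and at 3.33 and 5.02 in WNT_ACT (log2 fold change -3.55, SE 0.59, edgeR adjusted p = 0.00794), and its call was lost without WNT_ACT replicate 1 (adjusted p = 0.106). ZIC2, a zinc finger factor of the neural plate, rose from 91.9 and 84.6 CPM to 242 and 192 (log2 fold change 1.30, SE 0.12, edgeR adjusted p = 0.000898). SIX3, a forebrain gene, had 3 counts in WNT_E7 and 202 in WNT_ACT, a ratio of 70 (95% exact interval 23.6 to 342). NES rose by 0.61 (SE 0.11, edgeR adjusted p = 0.0123). PAX6 (adjusted p = 0.99) and SOX1 (0.062) were not called. ZIC2 kept its call with each of the 4 libraries left out, and SIX3 and NES only without WNT_ACT replicate 2.

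The other genes with the lowest log2 fold changes were SOX21, IRX1, HES3, C6orf141, SHISA3, SOX21-AS1, SPATA31A7, FOXB2, ELMOD1, SPATA31C1 and SORBS2, from -3.44 to -2.88. SOX21, a SOXB2 factor of neural progenitors, was at 3.66 and 2.44 CPM in WNT_E7 and at 0.256 and 0.347 in WNT_ACT (log2 fold change -3.44, SE 0.68, edgeR adjusted p = 0.0158). Its antisense partner SOX21-AS1 was at 3.35 and 1.9 CPM against 0.179 and 0.454, and without a stated strand their reads cannot be told apart. HES3, a neural HES repressor, was at 31.4 and 11.5 CPM against 0.947 and 3.82 (log2 fold change -3.39, SE 0.69, edgeR adjusted p = 0.017). SHISA3, an inhibitor of Wnt and FGF receptor maturation, was at 21.1 and 7.31 CPM against 1.36 and 1.74 (log2 fold change -3.18, SE 0.52, edgeR adjusted p = 0.0075). In each of these genes both WNT_ACT libraries lay below both WNT_E7 libraries. SPATA31A7 and SPATA31C1 have near-identical copies, so their counts are uncertain. Of these 12 lowered genes, GBX2 included, 1, 6, 3 and 12 were still called without WNT_ACT replicate 1, WNT_ACT replicate 2, WNT_E7 replicate 1 and WNT_E7 replicate 2.

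At the other end, the 12 highest log2 fold changes belonged to DKK4, FGF17, SOX17, PRSS2, CER1, GATA6, GATA6-AS1, LINC02141, GSC, MIXL1, LHX1 and LINC00479. PRSS2, a trypsinogen, had 0 counts in WNT_E7 and stood at 9.14 and 3.61 CPM in WNT_ACT, at least 170-fold higher. Its near-identical copy PRSS1 was called with it, so the split between them is uncertain. GATA6-AS1, antisense to GATA6, was at least 90.7-fold higher and LINC02141 at least 41.2-fold. LINC00479 had 1 count in WNT_E7 and 185 in WNT_ACT, a ratio of 192 (95% exact interval 34.1 to 7633). Left out in the same order, the 4 libraries left 4, 12, 1 and 11 of the 12 called.

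Retinoid genes changed in both directions: 3 of 21 tested rose and 2 fell (23.8% called, against 6.35% of all genes). CYP26A1, which breaks retinoic acid down, was at 1.5 and 2.05 CPM in WNT_E7 and at 140 and 57.3 in WNT_ACT (log2 fold change 5.60, SE 1.25, edgeR adjusted p = 0.0255). It lost its call with any 1 of the 4 libraries left out. The receptor genes RARA and RXRG rose by 0.79 (SE 0.17, edgeR adjusted p = 0.0236) and 2.84 (SE 0.48, 0.0101). DHRS3, a retinaldehyde reductase, was at 9.62 and 12.3 CPM against 1.33 and 6.95, and fell beside LRAT (log2 fold change -1.58, SE 0.40, edgeR adjusted p = 0.0434). Without either replicate 1 library LRAT alone was still called.

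In the apelin and neurotensin list, APLNR and NTS rose while APELA, a ligand of APLNR, fell from 63.9 and 62.5 CPM to 13.2 and 25.6 (log2 fold change -1.78, SE 0.26, edgeR adjusted p = 0.00433). The call of APELA was lost without WNT_ACT replicate 1 or WNT_E7 replicate 1. APLN, the other ligand, was at 1.3 and 1.42 CPM against 0.819 and 1.5 (adjusted p = 0.653). Receptor and ligand had opposite signs.

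Of the FGF and MAPK genes, 4 of 19 tested rose (21.1%, against 6.35% of all genes called), and 3 of these encode ligands. FGF17 had 1 count in WNT_E7 and 10664 in WNT_ACT, where it stood at 204 and 72.1 CPM, a ratio of 11080 (95% exact interval 1988 to 437691). FGF8, the streak ligand that drives cells out of it, was at 0.0254 and 1.65 CPM against 26 and 15 (edgeR adjusted p = 0.0409). FGF4 was at 1.09 and 3.37 CPM against 97.2 and 15.3 (log2 fold change 4.23, SE 1.02, edgeR adjusted p = 0.0352). The fourth, DUSP5, a phosphatase of ERK, rose by 0.49 (SE 0.12, edgeR adjusted p = 0.0305). Without either replicate 1 library only FGF17 was still called. Of the BMP list, 3 of 16 rose (18.8%, against 6.35% of all genes called): BMP2, SMAD6 and ID2. The ligand gene BMP2 was at 1.19 and 1.37 CPM in WNT_E7 and at 47.7 and 9.14 in WNT_ACT (log2 fold change 4.35, SE 0.68, edgeR adjusted p = 0.00588). Without WNT_E7 replicate 1 no gene of the list was called, and without either WNT_ACT library only BMP2 was. BMP4 was at 8.1 and 12 CPM against 7.99 and 13.5 (adjusted p = 0.815).

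Genes of mesenchymal transition rose in 6 of 14 cases (42.9%, against 6.35% of all genes called), with a median of 0.58. CDH2 (N-cadherin) was at 89.3 and 86.1 CPM in WNT_E7 and at 380 and 157 in WNT_ACT (log2 fold change 1.56, SE 0.29, edgeR adjusted p = 0.0127). The epithelial cadherin CDH1 was at 421 and 484 CPM against 349 and 495 (adjusted p = 0.701), and of 15 epithelial genes CLDN7 was called, 0.60 higher (adjusted p = 0.0198). That is 6.67% of the list, near the 6.35% of all genes. SNAI1, a repressor of CDH1, was at 5.51 and 8.01 CPM against 14.5 and 12.9 (log2 fold change 1.06, SE 0.19, edgeR adjusted p = 0.0111). The matrix proteases MMP14 and MMP2 and the fibronectin receptor subunit ITGA5 rose by 0.91, 0.75 and 0.93, and these 3 kept their calls with each of the 4 libraries left out.

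Of 21 matrix and integrin genes tested, 6 rose and 2 fell (38.1% called, against 6.35% of all genes), with a median of 0.08. COL5A1, a fibrillar collagen, was at 31.2 and 20.4 CPM in WNT_E7 and at 118 and 58.1 in WNT_ACT (log2 fold change 1.75, SE 0.17, edgeR adjusted p = 0.000949). COL5A2 was at 16.7 and 23.4 CPM against 283 and 111 (log2 fold change 3.22, SE 0.59, edgeR adjusted p = 0.0117). ITGA6, a laminin receptor subunit of stem cells, fell from 439 and 313 CPM to 121 and 179 (log2 fold change -1.29, SE 0.21, edgeR adjusted p = 0.00709). VCAN, a matrix proteoglycan, was 1.74-fold and 1.76-fold lower. Without WNT_E7 replicate 1, COL1A2, COL5A1, COL9A2 and ITGA5 were still called, and without WNT_ACT replicate 1 ITGA6 as well.

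No member of the Notch, S phase, G2 and M phase, p53 and stress, HOX or trophoblast lists was called, with 15, 15, 18, 16, 10 and 9 tested. Their medians lay between -0.03 and 0.12. At an unadjusted edgeR p under 0.05 they and the liver and gut list held 15 of 90 genes (16.7%), against 21.5% of all genes tested, and DESeq2 called 2, HLA-G and SOX9. Markers of other cell types were low or mixed. The fibroblast genes DCN, LUM and FAP were at 0 in all 4 libraries, while COL1A2 and PDGFRB rose and THY1 fell. The summed level of the 10 fibroblast markers was 521 and 764 CPM in WNT_E7 and 444 and 746 in WNT_ACT. For the 12 endothelial and blood markers it was 62.1 and 63.7 against 39 and 49.1 CPM, with 8 under 1 CPM throughout. Of the 11 tested only TEK was called, lower (9.09%, against 6.35% of all genes). For 12 markers of heart and somite the summed level was 9.09 and 11.2 against 10 and 12.9 CPM. Of the 10 tested only MYL7 was called, higher (10.0%, against 6.35% of all genes). For 10 liver and gut markers the summed level was 27.4 and 12.7 against 3.99 and 7.64 CPM, with 0 of 7 called. In the fibroblast, endothelial and liver lists 1 gene had far more WNT_E7 counts than the next. These were THY1 with 35929 (COL1A1 8202), TEK with 4391 (TIE1 173) and SOX9 with 1441 (AFP 122). The part of other cell types in the results was not tested.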

How the data were processed

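RNA-seq was measured in 16 libraries of RUES2 cells in 8 groups of 2. The deposited values are raw counts of reads per gene in whole numbers. The counter featureCounts is among the tools named, per the submitters' processing notes. The aligner, genome build and strand setting of the counts are not given in the sources used here. The columns were joined on gene ID (27348 genes). Replicate 1 of E7_CPI was left out because its values did not correlate with any other library (highest Spearman rho 0.00657, against 0.952 or more among the rest), and 15 libraries were fitted. The ATAC-seq peak list was not used. Nearly all genes of chromosome 22 (625 of 626) had no count, so none was interpreted.

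Genes were kept by edgeR's filterByExpr by group (17793 tested), scaled by TMM and tested with glmQLFit and glmQLFTest (R 4.3.3, edgeR 4.0.16, limma 3.58.1) on group plus replicate number, as contrasts in 1 fit, with Benjamini-Hochberg adjustment over all genes. The SE is the absolute log2 fold change divided by the square root of F. Values of 0 in a group give a lower bound at 3 counts over the group; 1 to 3 counts give a count ratio with a 95% exact interval. These cover counting error only.

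Same-numbered libraries deviated together: the correlation of deviations from group means over 13976 genes was 0.456 to 0.899 in 21 pairs of groups, and 0.687 for WNT_ACT and WNT_E7. There were 2 libraries a group.

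Named genes were the 4 markers, the members of 26 lists, and the 12 called genes with the highest and the 12 with the lowest log2 fold change that moved the same way in both replicates and had a mean of at least 1 CPM in the higher group. Lists and members were chosen with earlier results of these data known. Some called members are shared between lists, so the shares called are not separate results. These include SNAI1, WNT3, FGF8, FGF17, SMAD6, ITGA5 and COL1A2. Genes called without the block or between WNT_E7 and WNT were added after their values were seen. Alternatives were no block, DESeq2 1.42.0, its size factors, library totals, other filters, fewer groups, and each library left out. A few genes are not reported here. The scripts were tested on simulated data.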

Additional observations from a re-analysis of the deposited data

How the results depend on the processing

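With no replicate block, which the pairing of same-numbered libraries bears on, WNT_ACT against WNT_E7 had 22 calls in place of 1130, WNT_ACT against WNT 112 in place of 1648, WNT_E7 against WNT 0 in place of 7 and WNT_ACT against E7_ACT 379 in place of 2024. For the 0, DESeq2 with the block called 62 genes between WNT_E7 and WNT, and 1726 between WNT_ACT and WNT_E7. With the compared groups fitted alone WNT_E7 against WNT had 32. WNT_ACT against WNT_E7 then had 1286, of which 851 were among the 1130. With the 48 h groups alone WNT_ACT against WNT_E7 had 418 and WNT_ACT against E7_ACT 1328. In that last fit 5 streak genes, 0 pathway inhibitors and 2 pluripotency genes were called, in place of 10, 3 and 7. With 1 library left out the calls ranged from 124 to 1061 for WNT_ACT against WNT_E7, from 196 to 1246 for WNT_ACT against WNT, from 1 to 6 for WNT_E7 against WNT and from 532 to 1856 for WNT_ACT against E7_ACT. Other size factors, library totals, other filters and leaving out E7_CPI kept the WNT_ACT against WNT_E7 count between 1119 and 1179. Among single genes no called fold change turned direction. Uncalled ones did with 1 library left out, over ranges of log2 fold change of -0.11 to 0.34 (ACVR2A), -0.05 to 0.19 (ACVR2B), -0.21 to 0.02 (ACVR1B), -4.34 to 0.96 (PAX6), -0.21 to 0.48 (KIT), -0.95 to 0.28 (FST), -2.24 to 0.95 (CDX2), -0.12 to 0.24 (CHGA), -0.07 to 0.49 (AXIN2), -0.85 to 0.26 (APLN), -0.14 to 0.29 (BMP4) and -0.30 to 0.09 (CDH1). Against E7_ACT the range was -0.18 to 0.57 (PMEPA1). Against WNT they were -0.87 to 0.18 (SP5), -0.44 to 0.09 (GAD1) and -0.22 to 0.34 (LINC01124). Their cause was not tested. With 2 libraries a group, 1 library decides many calls, and counts of 3 or fewer limit single genes to bounds or wide count ratios.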

Other observations

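Among the genes called both with and without the replicate block, several lie outside the lists of the report. TACR1, the receptor for substance P, was at 0.533 and 0.499 CPM in WNT_E7 and at 8.8 and 11.1 in WNT_ACT (log2 fold change 4.28, SE 0.46, edgeR adjusted p = 0.00132). FAM110B was at 6.55 and 6.81 CPM against 25.3 and 28.7 (log2 fold change 2.02, SE 0.15, edgeR adjusted p = 0.0004). BACE2, an aspartyl protease, was at 13.5 and 17 CPM against 75 and 75.3. KDM6B, a demethylase of histone H3, was at 5.59 and 6.11 CPM against 20.9 and 18.2. Of the lowered ones, JADE1 was at 320 and 319 CPM against 107 and 146, and LRRN1, a surface protein of stem cells, at 492 and 492 against 203 and 251.

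Called genes often had an adjacent gene in the RefSeq annotation called in the same direction. This held for 186 of 710 raised genes with a position (26.2%), against 7.61% of all tested genes, and for 71 of 418 lowered genes (17%), against 4.58%. Beside FGF17, DMTN was 4.11 higher on the log2 scale (edgeR adjusted p = 0.00365) and NPM2 1.77 higher (0.0272). Beside LHX1, its divergent transcript LHX1-DT was 4.01 higher (adjusted p = 0.0109), and beside SHISA3, BEND4 and ATP8A1 had log2 fold changes of -0.90 (0.0128) and -0.79 (0.00417). Strand use in the counting is not given in the sources used here, so overlapping neighbours share this uncertainty.

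With CPI-203 present on the Wnt3a day, the replicates of WNT_CPI_ACT diverged for CER1, at 141 CPM in replicate 1 and 0 in replicate 2.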
